A study of Mus musculus with 8 samples.

Results

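Nucleotide synthesis enzymes were examined in spleen cells as a set of 9 genes, listed by function and not by a test of their signal: Rrm1, Rrm2, Tyms, Cad, Umps, Gart, Paics, Atic and Impdh2. Each gene was represented by the probe set annotated to its symbol alone that had the highest mean over all 8 arrays, on the scale log2(signal + 16). Of the 9 genes, 8 had such a probe set and 7 of these lay above the filter on dim probe sets, out of 18193 genes with a probe set and 11189 above the filter. No probe set in the annotation used here was listed for Impdh2, which was not analysed. The probe set for Tyms lay below the filter.

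The arrays were hybridised with RNA of splenocytes from male C57/BL6 mice, in 4 groups of 2 mice, with each biologic replicate taken as 1 mouse. The groups were HMGA1a transgenic mice of 12 months (TG), wild type littermates of 12 months (WT), HMGA1a transgenic mice of 2 months and wild type littermates of 2 months. HMGA1a is a chromatin protein that binds AT-rich DNA. By the design text the transgenic mice all develop lymphoid tumours, and the ages lie before onset and after tumours are established. The promoter that drives the transgene is not given in the sources used here. Each group holds a mouse labelled replicate 1 and a mouse labelled replicate 2. Whole spleen cell suspensions were used, so a lower share of a cell type and less RNA per cell cannot be told apart.

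Cells build nucleotides from small precursors along a purine and a pyrimidine route, and reduce the ribonucleotides to the deoxynucleotides that DNA polymerases use. Ribonucleotide reductase carries out the reduction, thymidylate synthase adds the methyl group that makes thymidylate, and demand for all of these products is high in lymphocytes that divide. MYC and the transcription factors of the E2F family are known regulators of many of these genes.

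The stretches ahead of 4 of the genes are shown as context for the values that follow: those of Rrm1 and Rrm2, which supply deoxynucleotides, and of Paics and Atic, which make purines. The sequences are from RefSeq (GRCm38.p6), 5′ to 3′ on the strand of the gene, and run from 250 bases before to 50 bases after the annotated start. Capitals mark matches, on either strand, to CACGTG (the E-box bound by MYC and related factors), to CCAAT (the box bound by NF-Y) and to the E2F core, spelled TTCCCGC or with the variants TTCGCGC or else TTGCCGC or finally TTGGCGC. The Rrm1 window lies at chr7:102441445-102441744 on the plus strand, the Rrm2 window at chr12:24708004-24708303 on the plus strand, the Paics window at chr5:76951052-76951351 on the plus strand and the Atic window at chr1:71556906-71557205 on the plus strand.
Rrm1: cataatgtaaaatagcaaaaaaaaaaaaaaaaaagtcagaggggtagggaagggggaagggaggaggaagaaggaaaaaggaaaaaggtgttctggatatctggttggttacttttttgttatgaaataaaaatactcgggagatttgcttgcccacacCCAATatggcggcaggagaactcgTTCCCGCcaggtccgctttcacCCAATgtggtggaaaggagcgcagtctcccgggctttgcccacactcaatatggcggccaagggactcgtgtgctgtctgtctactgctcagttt
Rrm2: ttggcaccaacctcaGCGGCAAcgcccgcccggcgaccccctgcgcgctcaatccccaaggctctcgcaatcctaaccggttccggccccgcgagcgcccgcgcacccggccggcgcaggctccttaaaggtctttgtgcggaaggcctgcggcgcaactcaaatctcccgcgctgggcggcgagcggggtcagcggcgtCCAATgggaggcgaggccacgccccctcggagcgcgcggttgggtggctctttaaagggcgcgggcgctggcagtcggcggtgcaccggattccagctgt
Paics: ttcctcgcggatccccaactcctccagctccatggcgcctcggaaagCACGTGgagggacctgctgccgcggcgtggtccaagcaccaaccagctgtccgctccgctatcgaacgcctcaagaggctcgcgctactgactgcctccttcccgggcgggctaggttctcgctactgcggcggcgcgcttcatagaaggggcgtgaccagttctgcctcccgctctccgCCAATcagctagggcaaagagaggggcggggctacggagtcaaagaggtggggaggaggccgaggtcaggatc
Atic: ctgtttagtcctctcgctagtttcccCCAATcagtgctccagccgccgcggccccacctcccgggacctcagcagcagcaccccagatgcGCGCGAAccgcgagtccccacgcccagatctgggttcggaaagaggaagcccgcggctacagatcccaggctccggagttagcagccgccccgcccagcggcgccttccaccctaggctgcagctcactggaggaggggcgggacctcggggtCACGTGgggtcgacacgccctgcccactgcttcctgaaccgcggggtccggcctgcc
In the Rrm1 window CCAAT matched at -91 and -45 and the E2F core at -67, counted from the start to the first base of the match. In the Rrm2 window the E2F core matched at -235 and CCAAT at -50. The Paics window held CACGTG at -203 and CCAAT at -23, and the Atic window held all 3 motifs, with CACGTG at -7. Over the windows of all 9 genes, CACGTG was found in 4, CCAAT in 6 and the E2F core in 5. Among 32544 distinct windows of the same length from 26742 genes, the shares with a match were 7.17% for CACGTG, 37.4% for CCAAT and 9.64% for the E2F core. The reverse spelling of CCAAT shares bases with TTGGCGC, and in the Impdh2 window the matches to CCAAT and the E2F core overlap. The Umps window held none of these letters. A match is a description of the sequence only, and binding was not measured.

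At 12 months, the age of established tumours, the signal of every member above the filter averaged higher in TG than in WT spleens, by 0.07 to 0.46 on the log2 scale, as did 45.2% of all genes tested. Rrm1, Umps, Gart and Atic had both TG arrays above both WT arrays. None of the 7 members passed the test (limma with Benjamini-Hochberg adjustment over all genes, adjusted p = 0.698 to 0.990), and 0 of the 7 had an unadjusted p under 0.05. The same test called 0% of all 11189 genes, and 865 had an unadjusted p under 0.05, 2.59% of all genes on the higher and 5.14% on the lower side. The number of arrays limits the precision, with 2 mice in each group.

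Rrm1 encodes the large, catalytic subunit of ribonucleotide reductase. It had signals of 1119.6 and 1019.9 on the TG arrays of 12 months, against 799.8 and 751 on the WT arrays of that age. Both TG arrays were higher than both WT arrays. Group means were 1070 ± 70.5 in TG and 775.5 ± 34.3 in WT spleens (SD, n = 2 each), a log2 fold change of 0.46 ± 0.25 (SE, limma adjusted p = 0.727). Within replicate 1 and within replicate 2 the difference was 0.48 and 0.43.

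Rrm2 encodes the small subunit, which carries the radical the reaction needs and is known to be limited to S phase. Its signals were 2702 and 1927 on the TG arrays of 12 months and 2012 and 1631 on the WT arrays. The groups overlapped, because the replicate 2 TG array lay under the replicate 1 WT array, while each TG array was above the WT array of its own replicate number. The log2 fold change was 0.33 ± 0.29 (limma adjusted p = 0.859), made of 0.42 within replicate 1 and 0.24 within replicate 2.

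Tyms encodes thymidylate synthase. The probe set chosen for it had signals of 28.7 and 17.9 on the TG arrays of 12 months and 29.9 and 19.9 on the WT arrays, all under the filter at a signal of 45.3. The other 3 probe sets listed for Tyms alone were dimmer still on average. At this brightness a difference could not be judged, and Tyms was not tested in the main fit. A brighter probe set, listed also with the pseudogene Tyms-ps, is described in the closing section.

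The pyrimidine enzymes Cad and Umps differed from each other in how far the arrays separated. Cad encodes the multifunctional protein that starts pyrimidine synthesis. Its signals were 372 and 641 on the TG arrays of 12 months and 396 and 545 on the WT arrays, a log2 fold change of 0.07 ± 0.44 (limma adjusted p = 0.990) with overlapping groups. The difference was -0.09 within replicate 1 and 0.23 within replicate 2. In both genotypes the replicate 2 array of Cad was the brighter one.

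Umps encodes the bifunctional enzyme that completes uridine monophosphate. Its signals were 232 and 250.1 on the TG arrays of 12 months, against 171 and 181 on the WT arrays, without overlap. The means were 241 ± 12.5 in TG and 176 ± 6.997 in WT spleens (SD, n = 2 each). Umps had the smallest p among the members, with a log2 fold change of 0.42 ± 0.21 (limma adjusted p = 0.698) and within-replicate differences of 0.41 and 0.44.

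Among the purine enzymes, Gart, which encodes a trifunctional protein of the early route, had signals of 412 and 429 on the TG arrays of 12 months, against 299.96 and 351 on the WT arrays. The groups did not overlap. The log2 fold change was 0.36 ± 0.22 (limma adjusted p = 0.739), with 0.44 within replicate 1 and 0.28 within replicate 2. Paics encodes the bifunctional enzyme of the middle of the route. Its signals were 1742 and 1108 on the TG arrays and 1323 and 1083 on the WT arrays. The Paics groups overlapped, and the log2 fold change of 0.21 ± 0.25 (limma adjusted p = 0.909) was made of 0.39 within replicate 1 and 0.03 within replicate 2. Atic encodes the enzyme of the closing steps to inosine monophosphate. It had signals of 797 and 721 on the TG arrays, against 563 and 673 on the WT arrays, without overlap. Its log2 fold change was 0.29 ± 0.17 (limma adjusted p = 0.730), with 0.49 within replicate 1 and 0.10 within replicate 2.

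**Figure D1:**
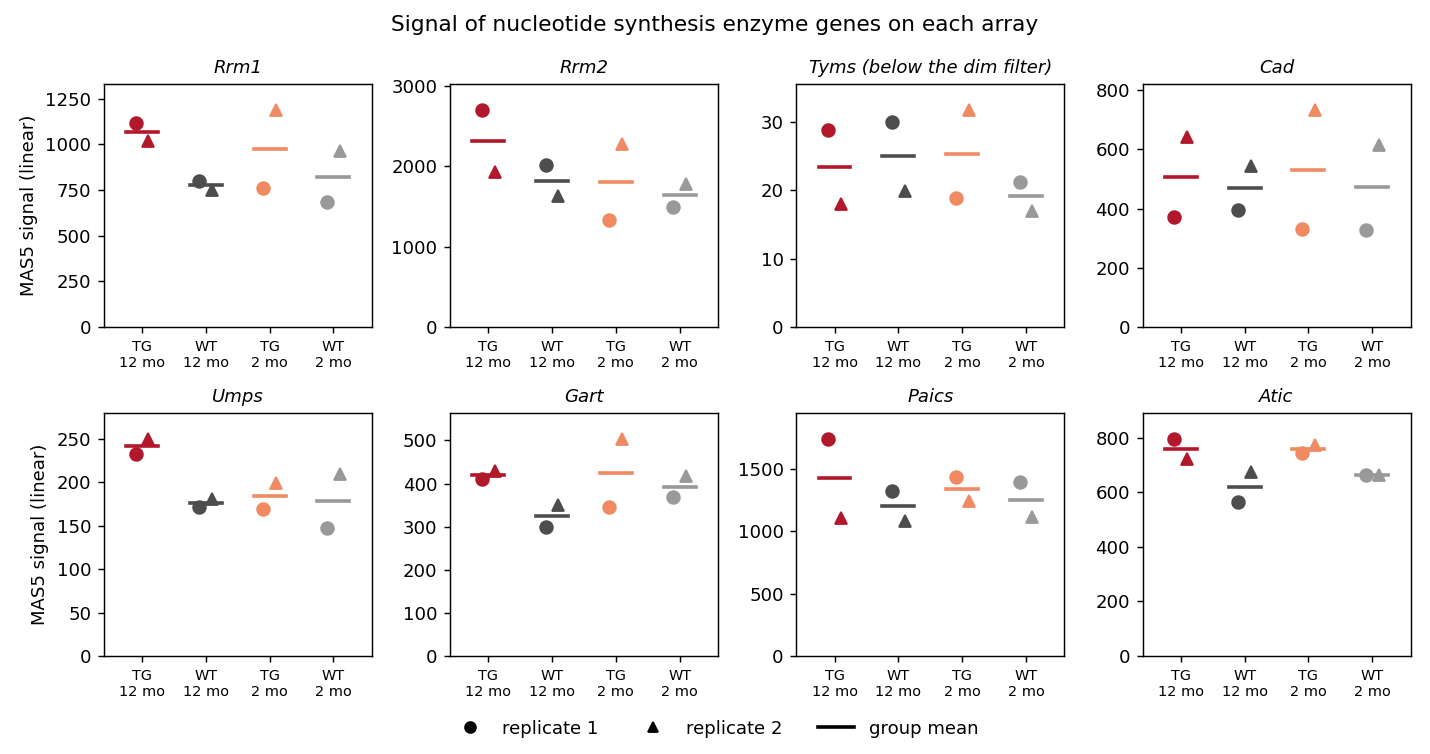
Signal (linear scale, vertical axis from 0) of the 8 measured genes on each of the 8 arrays, with circles for replicate 1, triangles for replicate 2 and bars for group means. For Rrm1, Umps, Gart and Atic both 12-month TG arrays lie above both 12-month WT arrays, and Tyms stays under a signal of 32 on all arrays.

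Counted over the 7 members above the filter, 4 had TG arrays that did not overlap the WT arrays on the higher side at 12 months and 0 on the lower side, where 14.3% of all genes tested lay on the higher side and 19.9% on the lower. The difference was above 0 within both replicates for 6 of the 7 and below 0 within both for 0, against 26.9% and 35.5% of all genes. The median log2 fold change of the 8 measured genes, the dim Tyms included, was 0.31, beside -0.03 over all genes tested. Within replicate 1 it was 0.42 and within replicate 2 it was 0.23, beside -0.05 and -0.02 over all genes. These genes share pathways and were measured in the same mice, so the counts are not of independent events. With the replicate number as a block, 5 of 11189 genes passed the test (0.0447%) and 0 of the 7 members did (limma adjusted p = 0.189 to 0.846). In that fit Umps, Gart and Atic had an unadjusted p under 0.05 on the higher side, as did 7.26% of all genes, and no member did on the lower side, where 12.6% of all genes lay.

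**Figure D2:**
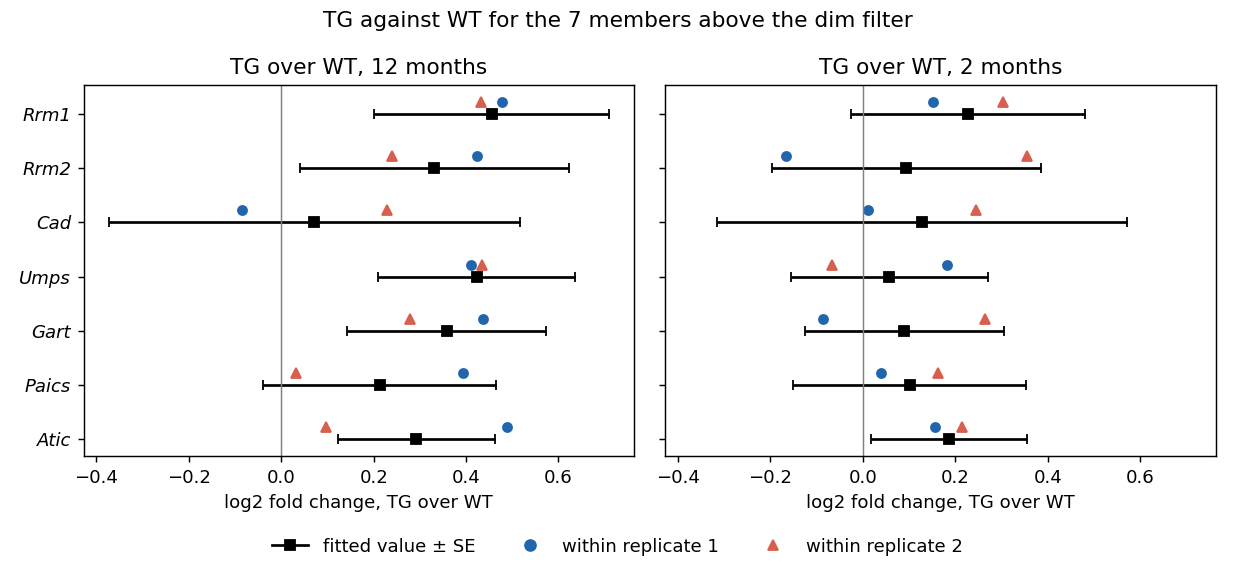
Log2 fold change of TG over WT (horizontal axis) for the 7 members above the filter, at 12 months on the left and 2 months on the right, with squares and bars for the fitted value ± SE and circles and triangles for the difference within replicate 1 and 2. At 12 months the fitted values run from 0.07 for Cad to 0.46 for Rrm1, and at 2 months from 0.06 for Umps to 0.23 for Rrm1.

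The other probe sets of these genes gave larger differences for several members at 12 months. The 8 measured genes had 26 probe sets listed for them alone, 18 of which lay above the filter, and all 18 averaged higher in TG than in WT spleens, with a median of 0.32. All 7 genes above the filter had more than 1 such probe set, and for 5 of them the brightest one, which stood for the gene, had the lowest difference. The second Rrm1 probe set, 1448127_at, had signals of 966 and 718 on the TG arrays, against 421 and 401 on the WT arrays, a log2 fold change of 0.99 ± 0.29. The Rrm2 probe set 1416120_at had 1269 and 849 on the TG arrays, against 704 and 492 on the WT arrays (0.80 ± 0.31). The remaining Rrm2 probe set, 1448226_at, had 1106 and 719 on the TG arrays and 833 and 484 on the WT arrays. Its log2 fold change was 0.48 ± 0.31, with overlapping groups. The suffix of the Rrm2 probe set that stood for the gene, 1434437_x_at, marks by the array maker's naming a set with probes that may match other transcripts.

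Of the 3 other Gart probe sets, 1 had a larger difference than the one that stood for the gene. This probe set, 1424435_a_at, had signals of 319.5 and 272 on the TG arrays of 12 months, against 132 and 175 on the WT arrays, a log2 fold change of 0.89 ± 0.22. The remaining Gart probe sets had 0.30 ± 0.21 (1424436_at, without overlap) and 0.20 ± 0.28 (1441911_x_at, with overlap). The Atic probe set 1452811_at had 141 and 172 on the TG arrays, against 63.0 and 84.1 on the WT arrays (0.95 ± 0.24). In each of the probe sets 1448127_at, 1416120_at, 1424435_a_at and 1452811_at both TG arrays lay above both WT arrays. In contrast, the Paics probe sets ranged only from 0.21 to 0.27, those of Cad were both at 0.07, and the dimmer Umps probe set 1434859_at had 0.16 ± 0.23.

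Fitted as rows of their own among 22520 probe sets, none of the 18 passed the test (limma, smallest adjusted p = 0.552 for Gart 1424435_a_at and Atic 1452811_at), and the same fit called 0% of all probe sets. An unadjusted p under 0.05 on the higher side was found for 4 of the 18, beside 3.35% of all probe sets, and 9 of the 18 had TG arrays above WT arrays without overlap, beside 15.7%. None lay below without overlap, beside 18.9%. With the replicate block, 7 of the 18 had an unadjusted p under 0.05 on the higher side, beside 8.76%. None passed, the smallest adjusted p being 0.0565 for Atic 1452811_at, although 0.244% of all probe sets did. At 2 months the same 4 probe sets overlapped. For 1448127_at of Rrm1 the signals were 375 and 680.4 on the TG arrays and 383 and 469.5 on the WT arrays, and for 1452811_at of Atic 90.7 and 111 on the TG arrays and 91.7 and 112 on the WT arrays. The Gart probe set 1424435_a_at had 179 and 206 on the TG arrays of 2 months and 169 and 200.3 on the WT arrays. At that age 14 of the 18 averaged higher in TG spleens, 1 without overlap (beside 9.57%) and 1, Umps 1434859_at, lower without overlap (beside 8.38%). Probe sets of a gene read the same RNA, so they are not replicates. This fit was chosen after the values were seen.

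**Figure D3:**
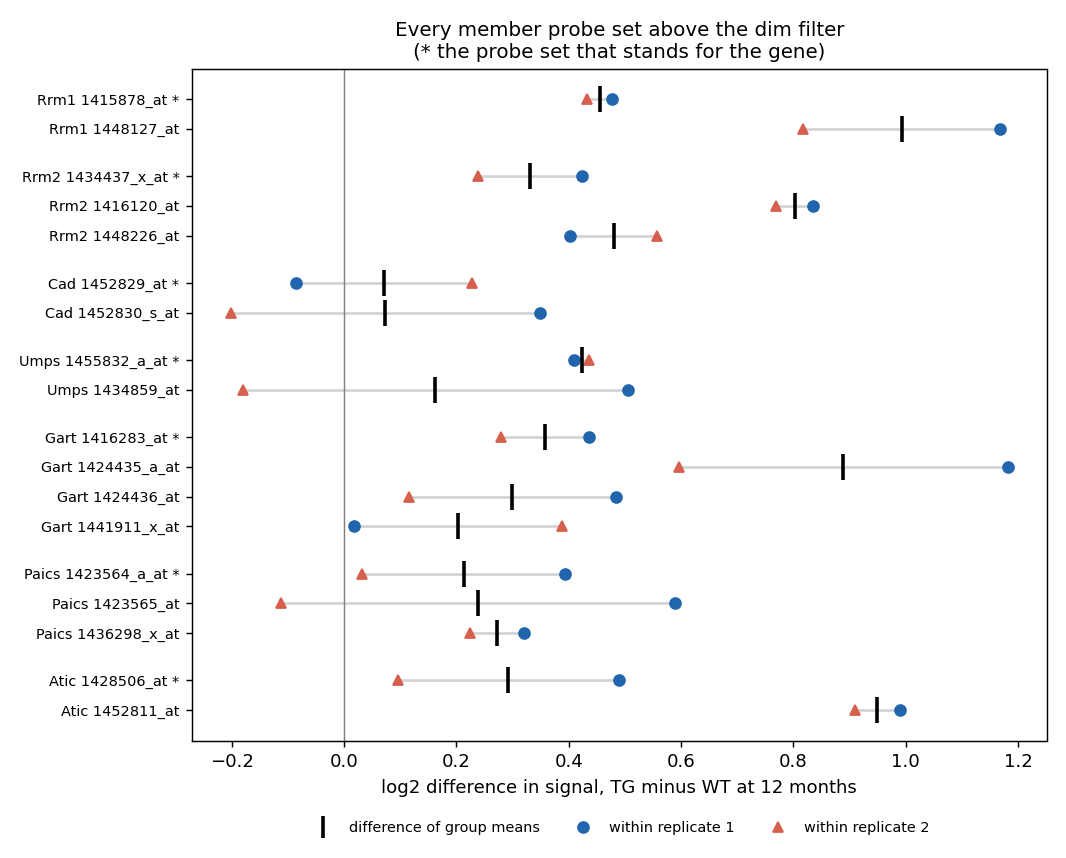
Log2 difference in signal, TG minus WT at 12 months (horizontal axis), for the 18 member probe sets above the filter, with circles and triangles for replicate 1 and 2 and a vertical mark for the difference of group means. All 18 marks lie to the right of 0, and the probe sets of Rrm1, Rrm2, Gart and Atic spread over a wider range than those of Cad and Paics.

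At 2 months, before tumours, the fitted log2 fold changes of the 7 members ran from 0.06 to 0.23, all above 0 like 52.5% of all genes. The signal of Rrm1 was 760.2 and 1189.7 on the TG arrays and 682 and 962 on the WT arrays, a log2 fold change of 0.23 ± 0.25 (limma adjusted p = 1.00) with overlapping groups. Rrm2 had 1333 and 2276 on the TG arrays and 1499 and 1775 on the WT arrays (0.09 ± 0.29), a difference of -0.17 within replicate 1 and 0.36 within replicate 2. Only for Atic did both TG arrays, at 743 and 774, lie above both WT arrays, at 664.8 and 664.7. Its log2 fold change was 0.19 ± 0.17 (limma adjusted p = 1.00).

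The remaining members overlapped at 2 months. Cad had signals of 329.6 and 733 on the TG arrays and 327 and 616 on the WT arrays (0.13 ± 0.44), and Umps had 169 and 199 on the TG arrays and 147 and 209 on the WT arrays (0.06 ± 0.21). Gart had 346 and 504 on the TG arrays and 369 and 417 on the WT arrays (0.09 ± 0.22). Paics had 1435 and 1246 on the TG arrays and 1396 and 1111 on the WT arrays (0.10 ± 0.25). Tyms stayed dim, at 18.9 and 31.7 on the TG arrays and 21.2 and 17.0 on the WT arrays. The replicate 2 array was the brighter of its group for Rrm1, Rrm2, Cad, Umps and Gart in both genotypes at 2 months, and the dimmer one for Paics.

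None of the 7 members passed the test at 2 months (limma adjusted p = 1.00 for all), with 0% of all genes called, and 0 members had an unadjusted p under 0.05, beside 44 of all genes (0.295% of them on the higher and 0.0983% on the lower side). Over the 7 members above the filter 1 did not overlap on the higher side and 0 on the lower, beside 10.1% and 7.83% of all genes. The difference was above 0 within both replicates for 4 and below 0 within both for 0, beside 27.2% and 24.2%. The median log2 fold change was 0.11, beside 0.01 over all genes, and it was 0.02 within replicate 1 and 0.25 within replicate 2. Without the replicate 2 TG array of 2 months the median was -0.07, and without the replicate 1 TG array it was 0.40. Exocrine pancreas genes summed to 11558 on the replicate 1 WT array of 2 months and to between 447 and 726 on the other arrays, and without that array the 2-month median was -0.0057.

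The difference of the TG effects at the 2 ages was tested directly. It was positive for 6 of the 7 members, from 0.11 for Atic and Paics to 0.37 ± 0.30 for Umps, and -0.06 ± 0.63 for Cad. None passed the test (limma adjusted p = 1.00, and 0.663 to 0.960 with the replicate block), and 0% of all genes were called. The difference was above 0 within both replicates for Rrm1, Umps and Gart, 3 of the 7 members above the filter, beside 22.8% of all genes, and below 0 within both for Cad, beside 32.7%. A difference between the ages was thus not shown for any member. The standard errors of 0.24 to 0.63 leave wide room either way. With the replicate block they were smaller, from 0.18 for Atic to 0.37 for Rrm2, and still no member passed.

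Age itself was compared within each genotype. In TG mice, Umps had both arrays of 12 months above both arrays of 2 months, with means of 241 ± 12.5 at 12 months and 184 ± 20.6 at 2 months (SD, n = 2 each) and a log2 fold change of 0.37 ± 0.21 (limma adjusted p = 1.00, and 0.356 with the replicate block). It was the single member without overlap, beside 10.3% of all genes on the higher and 17.4% on the lower side. The other members went apart by replicate. The difference of 12 over 2 months in TG mice was 1.01 within replicate 1 and -0.24 within replicate 2 for Rrm2, and 0.55 and -0.22 for Rrm1. Over the 8 measured genes the TG median was 0.32 within replicate 1 and -0.20 within replicate 2, and 0.03 in the fit.

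In WT mice the 12-month signals of Gart, at 299.96 and 351, lay under both 2-month signals, at 369 and 417, with a log2 fold change of -0.26 ± 0.22 (limma adjusted p = 1.00). It was the single member without overlap, beside 12.7% of all genes on the higher and 10.9% on the lower side. Atic, by contrast, had 563 and 673 on the WT arrays of 12 months and 664.8 and 664.7 on those of 2 months. The WT median over the 8 measured genes was 0.21 within replicate 1 and -0.15 within replicate 2, and -0.03 in the fit. It was -0.17 without the replicate 1 WT array of 2 months, the array high in exocrine pancreas genes. Without the replicate 2 WT array of 2 months it was 0.15. No member passed in either genotype. In TG mice 1 of all genes passed (0.00894%) and 21 with the replicate block (0.188%), and in WT mice 0% passed in either fit, 171 genes having an unadjusted p under 0.05 without the block. The comparisons of age and of genotype share arrays, so they are not independent of each other.

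The other genes of the pathways were read from lists that leave out the 9 members. In the purine route 11 other genes were tested. At 12 months 4 had TG arrays above WT arrays without overlap and 2 below, beside 14.3% and 19.9% of all genes. None passed the test, and the median log2 fold change was 0.16 (0.34 within replicate 1 and 0.04 within replicate 2). It was 0.08 without the replicate 1 TG array of 12 months and 0.32 without the replicate 2 TG array. Adsl, which encodes adenylosuccinate lyase, had signals of 288 and 284 on the TG arrays, against 189 and 214 on the WT arrays (0.48 ± 0.19, limma adjusted p = 0.610). Ppat, which encodes the first committed enzyme of the route, had 265 and 194 on the TG arrays, against 188 and 138 on the WT arrays (0.45 ± 0.22). Prps2, a synthetase of the ribose donor PRPP, had 1014 and 743 on the TG arrays and 681 and 474 on the WT arrays (0.60 ± 0.34).

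Impdh1 encodes the sister enzyme of the unmeasured Impdh2 and was singled out for that reason after its values were seen. It had signals of 286 and 325 on the TG arrays of 12 months and 334 and 402 on the WT arrays, a log2 fold change of -0.25 ± 0.27 (limma adjusted p = 0.893), so it differed in sign from the purine members named above.

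In the pyrimidine route 4 other genes were tested, and at 12 months 0 did not overlap on the higher side and 1 on the lower, beside 14.3% and 19.9% of all genes. The median was 0.08, with 0.22 within replicate 1 and -0.06 within replicate 2, and it was -0.03 without the replicate 1 TG array and 0.17 without the replicate 2 TG array. The gene on the lower side was Ctps2, a synthetase of cytidine triphosphate, with signals of 260.2 and 220.3 on the TG arrays, against 354 and 275 on the WT arrays (-0.36 ± 0.21, limma adjusted p = 0.729). Its relative Ctps had 485 and 311 on the TG arrays and 334 and 286 on the WT arrays (0.32 ± 0.23). Cmpk1, a kinase of pyrimidine monophosphates, had 1643 and 1326 on the TG arrays and 1247 and 1334 on the WT arrays (0.19 ± 0.18).

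Among the other genes of deoxynucleotide supply, 10 were tested. At 12 months 3 did not overlap on the higher side and 0 on the lower, beside 14.3% and 19.9% of all genes. The 12-month median was 0.30, or 0.40 within replicate 1 and 0.22 within replicate 2, and it was 0.12 without the replicate 1 WT array of 12 months. Nme1, a nucleoside diphosphate kinase, had signals of 809 and 707 on the TG arrays, against 460.0 and 585 on the WT arrays (0.53 ± 0.19, limma adjusted p = 0.591). Its relative Nme2 had 4563 and 3999 on the TG arrays, against 2907 and 3344 on the WT arrays (0.45 ± 0.18). Dut, the enzyme that removes dUTP, had 696 and 377 on the TG arrays and 389 and 258 on the WT arrays (0.67 ± 0.34). Nme1 and Nme2 are near-identical neighbours, so how far their signals are separate is uncertain.

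Salvage enzymes, which recycle bases and nucleosides, stood about even at 12 months, with a median of 0.01 over 10 tested genes. Of these, 2 did not overlap on the higher and 1 on the lower side, beside 14.3% and 19.9% of all genes. With 1 array of 12 months left out the median lay between -0.0147 (without the replicate 1 TG array) and 0.11 (without the replicate 2 TG array). Tk2, the mitochondrial thymidine kinase, had 193 and 297 on the TG arrays and 289.6 and 417 on the WT arrays (-0.51 ± 0.28, limma adjusted p = 0.727), lower within both replicates. Aprt, which recycles adenine, had 709.9 and 779 on the TG arrays, against 569.7 and 695 on the WT arrays (0.24 ± 0.20). Uck1, a uridine and cytidine kinase, had 241 and 238 on the TG arrays, against 278 and 269 on the WT arrays (-0.18 ± 0.22).

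Of 10 listed genes of nucleotide breakdown, 7 were tested and 3 lay below the filter. At 12 months 4 of the 7 did not overlap on the higher side and 1 on the lower, beside 14.3% and 19.9% of all genes. The median was 0.39, or 0.10 within replicate 1 and 0.49 within replicate 2, and it was 0.14 without the replicate 2 TG array and 0.25 without the replicate 2 WT array of 12 months. Nt5e, the surface enzyme CD73 that makes adenosine, had 410.1 and 203 on the TG arrays, against 150.2 and 133 on the WT arrays (0.96 ± 0.34, limma adjusted p = 0.599). Ada, adenosine deaminase, had 189 and 209 on the TG arrays, against 133 and 144 on the WT arrays (0.47 ± 0.21). Xdh, xanthine dehydrogenase, had 165 and 204 on the TG arrays, against 245 and 276 on the WT arrays (-0.47 ± 0.23).

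The folate enzymes that feed carbon units to purine and thymidylate synthesis had a median of 0.28 over 6 tested genes at 12 months. Of these, 3 did not overlap on the higher side and 0 on the lower, beside 14.3% and 19.9% of all genes. The folate median was 0.44 within replicate 1 and 0.19 within replicate 2. It was 0.24 without the replicate 1 WT array of 12 months and 0.46 without the replicate 2 WT array of that age. Shmt1, the cytosolic serine hydroxymethyltransferase, had signals of 207 and 239.8 on the TG arrays, against 146 and 164 on the WT arrays of 12 months (0.48 ± 0.20, limma adjusted p = 0.627). At 2 months Shmt1 had 197 and 185 on the TG arrays, against 114 and 140.5 on the WT arrays, also without overlap (0.54 ± 0.20, limma adjusted p = 1.00). Mthfd1 had 529.8 and 655 on the TG arrays of 12 months, against 393 and 461 on the WT arrays (0.45 ± 0.34), and Shmt2, the mitochondrial hydroxymethyltransferase, had 562 and 411 on the TG arrays and 364 and 434 on the WT arrays (0.26 ± 0.22). None of the genes of these lists passed the test at either age, with or without the replicate block.

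Proliferation genes, taken as a sum, ordered the arrays much as the members did. For each of the 7 members above the filter the log2 signal was centred on its own mean over the 8 arrays, and the centred values were averaged on each array. This mean was 0.21 and 0.14 on the TG arrays of 12 months, against -0.15 and -0.11 on the WT arrays. At 2 months it was -0.18 and 0.26 on the TG arrays and -0.22 and 0.05 on the WT arrays.

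The summed signal of 15 proliferation genes was 21815 and 19206 on the TG arrays of 12 months, against 14894 and 15415 on the WT arrays. At 2 months it was 12410.3 and 21331 on the TG arrays and 12652 and 16662 on the WT arrays. The same 3 arrays were highest in both measures: both TG arrays of 12 months and the replicate 2 TG array of 2 months. The replicate 1 arrays of 2 months were lowest in both, in either genotype. At 12 months 0 of the 15 proliferation genes passed the test (limma). Of the 15, 14 had TG arrays above WT arrays without overlap and 0 below, beside 14.3% and 19.9% of all genes. Among them Pcna, the sliding clamp of replication, had signals of 4982 and 4903 on the TG arrays, against 3042 and 3389 on the WT arrays, Top2a, a topoisomerase, had 1870.1 and 1505 against 1080.5 and 1017, and Bub1, a spindle checkpoint kinase, had 310.0 and 145 against 142 and 84.1. The part of the proliferation genes' level in the members' values was not tested.

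**Figure D4:**
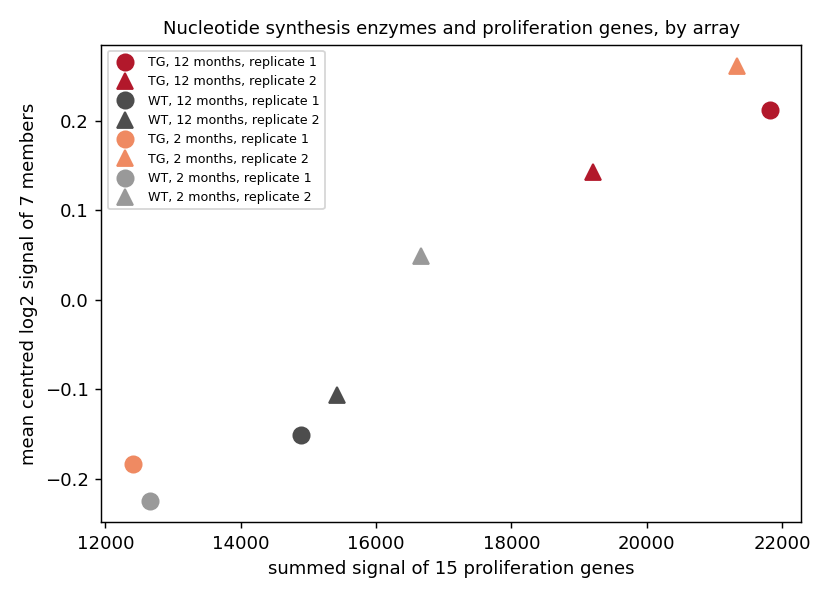
Mean centred log2 signal of the 7 members above the filter (vertical axis) against the summed signal of 15 proliferation genes (horizontal axis, linear scale) on each array, with colours for groups, circles for replicate 1 and triangles for replicate 2. Both TG arrays of 12 months and the replicate 2 TG array of 2 months lie at the upper right, and both replicate 1 arrays of 2 months at the lower left.

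Among the 11182 other genes above the filter, the 6 whose values over the 8 arrays were most like the members' mean were Anp32b (Pearson r = 0.983), Trarg1 (0.973), Haus4 (0.969), Aurka (0.966), Cenpn (0.964) and Flad1 (0.960). Aurka encodes a mitotic kinase, Cenpn a centromere protein and Haus4 a subunit of the augmin complex of the spindle. Anp32b had signals of 3288 and 3228 on the TG arrays of 12 months, against 2697 and 2666 on the WT arrays, and 2697 and 3487 on the TG arrays of 2 months, against 2615 and 3119 on the WT arrays. These are the top of a ranking over 8 arrays that share groups and replicate numbers, and r is a measure of likeness here, not a test.

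Other measures also moved with genotype or replicate. For Gapdh, the signal at the 3′ end divided by that at the 5′ end, a sign of RNA quality, was 0.843 and 1.21 on the TG arrays of 12 months, against 1.25 and 1.74 on the WT arrays, and that for beta-actin was 1.20 and 1.10 against 1.48 and 1.31. Among 6 B cell markers with a measured level, 0 of 6 averaged higher in TG spleens at 12 months, and their summed signal was 8974 and 17701 on the TG arrays and 13823 and 18917 on the WT arrays. Of these, Cr2, the complement receptor CD21, had 425 and 564 on the TG arrays, against 1352 and 1607 on the WT arrays, a log2 fold change of -1.56 ± 0.20 (limma adjusted p = 0.232, and 0.0255 with the replicate block). Fcer2a, the IgE receptor CD23, had 298 and 467 on the TG arrays, against 805 and 1429 on the WT arrays (-1.48 ± 0.33, limma adjusted p = 0.561, and 0.0255 with the block). Both thus fell in the fit with the block, and in TG mice both also fell with age in that fit (limma adjusted p = 0.0326 for Cr2 and 0.0182 for Fcer2a). The 6 T cell markers, 5 of them higher, summed to 7037 and 2885 on the TG arrays and 2429.8 and 3061 on the WT arrays. The 6 macrophage markers, 0 of them higher, summed to 9014 and 12173 against 16671 and 16086, and the 7 erythroid markers, 4 of them higher, to 8641 and 11714 against 10947 and 10031. Neutrophil markers, 7 of 7 higher, summed to 9205 and 20818 against 10025 and 5696. None of these sums was near 0, and the part of these cell types and of RNA quality in the members' values was not tested. The labelled tissue showed its defining lymphocyte markers on all arrays, with Ms4a1 between 3970.1 and 6685 and Cd3e between 287 and 803.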

How the data were processed

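Splenocyte RNA of 8 mice was measured on Affymetrix Mouse 430 2.0 arrays. The deposited files give each probe set's linear intensity, made per the submitters' processing notes with GCOS 1.4 and MAS5. Every array had the same trimmed mean of 150.001, and array medians lay between 44.9 and 49.5. Of 45101 probe sets, 34945 had 1 symbol, 932 several and 9160 none, and 64 were controls. Symbols were updated through gene identifiers (RefSeq, GRCm38.p6).

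From the intensities, log2(signal + 16) was computed. Probe sets under the median of mean log2 values were dropped, and the brightest probe set stood for each of 11189 genes. A model of 4 group means was fitted to all 8 arrays (limma 3.58.1 in R 4.3.3, lmFit and eBayes with an intensity trend). P-values are 2-sided, adjusted by Benjamini-Hochberg over all genes, with a threshold of 0.05. The fit was also run on simulated data, with independent noise below that typical of the arrays and no replicate effect. The planted changes were larger than the members' differences, so that run does not cover differences of the members' size. Arrays are labelled as biologic replicates and were taken as separate mice, which the labels do not state. They correlated at 0.950 to 0.981. The replicate 2 minus replicate 1 difference of 1 group correlated over genes with that of each other group, in 6 pairs (r = 0.464 to 0.654). The replicate number thus pairs the arrays. The fit with it as a block is given where it changes a call. The counts it moves are given in part, some of them in the closing section. Counts of list genes at an unadjusted p are left out.

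The members and lists were chosen with earlier results of these data known. Genes named are all members, the 3 (12 months) or up to 2 (elsewhere) most extreme genes of each list by moderated t, and the 6 most like the members' mean; not all of the latter genes are described. Lists with older symbols were matched by name (Adss2 as Adss, Adss1 as Adssl1, Ctps1 as Ctps, Hprt1 as Hprt). A probe set listed with more than 1 symbol was left out, the one shared by Tyms and Tyms-ps included.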

Additional observations from a re-analysis of the deposited data

How the results depend on the processing

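With 1 value per gene, no member passed the test in any of the 5 comparisons under any of the alternatives tried, and the smallest adjusted p was 0.189 (Umps, TG over WT at 12 months, replicate block). With each probe set fitted on its own, the smallest with the block were 0.0565 for Atic 1452811_at and 0.0706 for Gart 1424435_a_at. The median of the 8 measured members for TG over WT at 12 months lay between 0.28 and 0.36 under alternatives that kept all arrays and between 0.30 and 0.37 with 1 array left out. There Rrm1 (0.39 to 0.52), Umps (0.37 to 0.47), Gart (0.25 to 0.47), Atic (0.17 to 0.42) and Rrm2 (0.09 to 0.57) stayed above 0 with each array left out, while Cad (-0.31 to 0.45) and Paics (-0.11 to 0.54) changed sign. With probe sets averaged per gene, Rrm1 was at 0.72 and Atic at 0.62, while Umps fell to 0.29. At 2 months the member median ranged from -0.0691 to 0.40 with 1 array left out, and the difference of the TG effects from -0.0412 to 0.49. Members that changed sign with 1 array left out at 2 months were Rrm1 (-0.09 to 0.55), Rrm2 (-0.29 to 0.48), Cad (-0.43 to 0.69), Umps (-0.17 to 0.29), Gart (-0.17 to 0.35) and Paics (-0.0609 to 0.26). For the difference of the effects they were Rrm1 (-0.0902 to 0.55), Rrm2 (-0.15 to 0.62), Cad (-0.61 to 0.50), Paics (-0.21 to 0.43) and Atic (-0.0187 to 0.23). For age in TG mice they were Rrm1 (-0.15 to 0.48), Cad (-0.57 to 0.55), Gart (-0.25 to 0.27), Paics (-0.27 to 0.38) and Atic (-0.0711 to 0.0698), and for age in WT mice Rrm1 (-0.31 to 0.18), Rrm2 (-0.0005 to 0.30), Cad (-0.39 to 0.49), Umps (-0.23 to 0.23), Paics (-0.22 to 0.11) and Atic (-0.23 to 0.018).

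Some members changed sign with all arrays kept. Averaging the probe sets of each gene gave -0.11 for Umps and -0.0080 for Paics at 2 months, 0.0109 for Cad in the difference of the effects, 0.0071 for Cad and 0.28 for Atic with age in TG mice, and -0.0039 for Cad and -0.0257 for Umps with age in WT mice. Quantile normalization gave 0.0031 for Cad and 0.0085 for Atic with age in TG mice and -0.0181 for Umps in WT mice. Cyclic loess gave 0.0209 for Cad and 0.0209 for Atic in TG mice and -0.0162 for Umps in WT mice, and a pseudocount of 64 gave -0.0026 for Umps in WT mice. The causes were not tested. Over all genes, the replicate block moved the count past the test to 5 at 12 months and to 21 for age in TG mice, where the pseudocount of 1 gave 0. With 1 array left out the counts ranged from 0 to 7 for TG over WT at 12 months (7 without the replicate 2 TG array), from 0 to 2 at 2 months, from 0 to 4 for age in TG and from 0 to 4 for age in WT mice. The replicate block changed no call on a member, while 2 B cell markers, Cr2 and Fcer2a, passed only with it, at 12 months and for age in TG mice. With the block, the count of all genes at an unadjusted p under 0.05 was 2227 against 865 without it for TG over WT at 12 months, 189 against 44 at 2 months, 911 against 213 for the difference of the effects, 1497 against 528 for age in TG and 578 against 171 for age in WT mice. Of 1190 list medians under the alternatives, 1109 moved by less than the spread between replicates. Part of this count was fixed in advance. The replicate block, eBayes without the intensity trend and the loss of an array outside the comparison cannot move a median. Precision is limited throughout by the 2 arrays in a group.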

Other observations

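A probe set listed with both Tyms and its pseudogene Tyms-ps, 1424991_s_at, stood for neither gene, since its signal can come from either. It had signals of 224 and 186 on the TG arrays of 12 months, against 161 and 137 on the WT arrays of that age. At 2 months it had 150.1 and 313 on the TG arrays and 134 and 191 on the WT arrays. It was brighter on every array than the 4 probe sets listed for Tyms alone, which had a mean log2 value under the filter. The third Paics probe set, 1436298_x_at, differed mainly by replicate number, with 1302 and 364 on the TG arrays of 12 months and 1039 and 309 on the WT arrays, and with 1000.3 and 429 on the TG arrays of 2 months and 1186 and 529 on the WT arrays. Replicate 1 was the brighter array in all 4 groups. The main Cad probe set had the replicate 2 array brighter in all 4 groups.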
